A study of Apostichopus japonicus with 9 samples.

Results

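Serine proteases and protease inhibitors were followed in body wall (AJBW) of *Apostichopus japonicus*, a sea cucumber. They are the genes above 0 FPKM in at least 2 libraries whose description names trypsin, plasminogen, serine protease, serpin, protease or proteinase inhibitor, macroglobulin, cystatin or Kazal. Genes described as lectin or metalloproteinase and genes of the lysosome pathway were not taken, and MSTRG.23773, described as pregnancy zone protein, was added by its number. This gave 50 genes of 53665. The libraries were made from fresh body wall (CON, 0 h) and from pieces incubated at 37 °C, for 1 h in T_1h and for 3 h in T_3h, with 3 libraries in each group. The animals weighed 150 ± 20 g, came from a market, and had their heads and viscera taken off before the wall was cut into pieces that were incubated 3 to a plate. FPKM counts fragments relative to the length of a gene's exons and to all mapped fragments of its library, so levels of different genes can be set side by side, but the number of reads behind a value is unknown. The 3 libraries of a group are described as biological replicates, but whether each came from its own animal is not stated, so the p-values measure the spread between these libraries.

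Proteases cut other proteins, and most tissues hold them in check with inhibitors of several unrelated designs. Serpins, Kazal and Kunitz domains block the active site of serine proteases such as trypsin, chymotrypsin and plasmin. Macroglobulins are large secreted proteins that close around a protease of nearly any class, while stefins and cystatins bind cysteine proteases such as the cathepsins. Invertebrates use these proteins in the body fluid for defence and clotting and around cells for the turnover of the matrix.

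By their descriptions the 50 genes held 25 inhibitors, 23 serine proteases and 2 proteins that are neither. The inhibitors were 7 macroglobulins, 4 Kazal inhibitors, 1 Kunitz inhibitor, 2 stefins (described as leukocyte cysteine proteinase inhibitor), 1 cystatin, 2 serpins, 5 heavy chains of the inter-alpha-trypsin inhibitor, 2 RECK proteins with Kazal motifs and 1 WFIKKN protein, which joins several inhibitor domains. The serine proteases were 4 trypsin-like proteases, 7 neurotrypsins, 2 chymotrypsins, 2 plasminogen-like genes and 8 others. The label is therefore wider than serine protease control: stefins and cystatins act on cysteine proteases, RECK is known in mammals to restrain metalloproteinases, and the heavy chains bind hyaluronan while another chain of that complex inhibits. MSTRG.35311 is described as the receptor-associated protein of the macroglobulin receptor, a chaperone, and MSTRG.4190 as an RNA-binding protein that took its name from the plasminogen activator inhibitor. Of the 50 genes, 32 were above 0 in all 9 libraries and 24 had a mean FPKM of at least 1. MSTRG.26357 and AJAP08391 only just met the rule, each with FPKM above 0 in exactly 2 libraries. All 50 genes passed the filter on low values and were tested, and 7 of them merge several predicted genes.

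The 9 libraries summed to between 336123 and 388082 FPKM, and the 50 genes made up between 0.234% and 0.506% of that. T_1h_1 was left out of the fit because the study's methods leave it out. T_3h_2 stood apart, with 12877 genes at 1 FPKM or more, against 17380 to 24915 in the other libraries. Its scaling factor by the median-ratio method was 0.594, against 0.877 to 1.49 in the other fitted libraries. Genes that mark tissues or cell types, the connective tissue of the body wall among them, were summed too. The 24 genes of digestive tract descriptions summed to 26.6 to 27.8 FPKM in T_3h and 18.4 to 26.1 in CON. The 25 genes of muscle summed to 87.8 to 197 FPKM in T_3h and 75.4 to 130 in CON. The 46 genes of connective tissue summed to 14568 to 32655 FPKM in T_3h and 13640 to 24467 in CON. The 26 genes described like those of coelomocytes, the cells of the body fluid, summed to 87.4 to 315 FPKM in T_3h and 106 to 278 in CON, and each list had a marker above 0 in every library. In T_1h the sums were 23.4 to 30.6 FPKM for digestive tract and 80.4 to 227 for muscle. They were 15157 to 25276 FPKM for connective tissue and 153 to 352 for coelomocytes. The part of these tissues in the results was not tested. In bulk tissue, fewer cells of a type and less RNA per cell cannot be told apart.

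Differences were tested with limma on log2(FPKM + 1) in 1 fit of 8 libraries over 50973 genes, and the thresholds were those of the study: an unadjusted p up to 0.05 with a change of 1 or more on the log2 scale, either way. Fold changes on this scale understate the change of low genes. After 3 h, 8 of the 50 genes passed, 4 higher and 4 lower than in CON, while 4.14% of all tested genes passed, 0.473% higher and 3.67% lower. After 1 h, 6 passed, 5 higher and 1 lower, against 0.871% of all tested genes, 0.398% higher and 0.473% lower. MSTRG.23773, which was added with its values known, is among the higher genes at both times. No gene of the 50 had a Benjamini-Hochberg adjusted p under 0.05 in the limma fit of 8 libraries or in the Ballgown-type test. The smallest adjusted p of limma was 0.626 after 3 h and 1 after 1 h, where 12 and 6 of the 50 genes had an unadjusted p under 0.05. The median log2 fold change of the 50 genes was −0.16 after 3 h and −0.03 after 1 h, beside −0.17 and −0.06 over all tested genes. With median-ratio scaling the median over all tested genes after 3 h moved to −0.02. A change near −0.17 on the deposited scale is therefore that of a typical tested gene, low genes included. Genes averaging 1 FPKM or more over the 8 libraries were lower after 3 h, with a median of −0.40 over 20339 genes. Among these 9.82% passed, 235 higher and 1762 lower. They included 25 of the 50 genes, with a median of −0.32, and 8 of the 25 passed. T_3h vs. CON and T_1h vs. CON share the CON libraries.

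**Figure D1:**
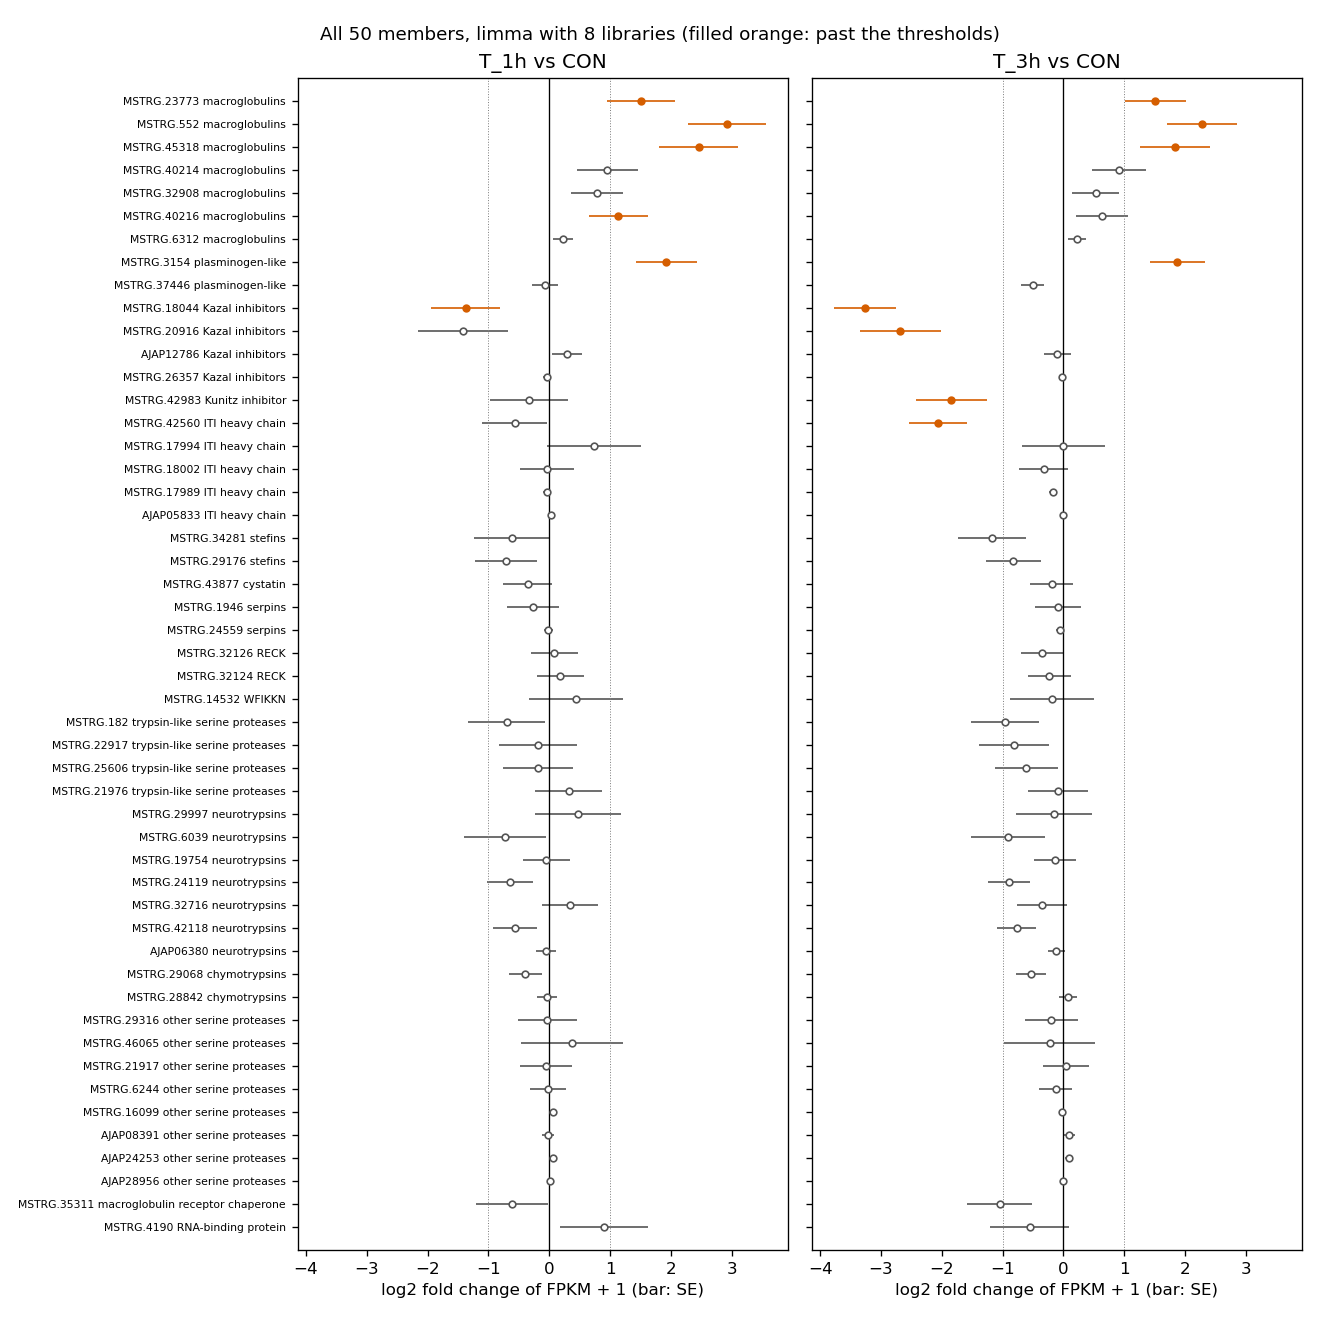
The log2 fold change of FPKM + 1 is plotted for each of the 50 genes, ordered by kind, in T_1h vs. CON on the left and T_3h vs. CON on the right, with bars of 1 SE from limma on 8 libraries and dotted lines at a log2 fold change of −1 and 1. Filled orange points passed the thresholds: 6 genes after 1 h and 8 genes after 3 h, with macroglobulins and 1 plasminogen-like gene on the right of 0 and Kazal, Kunitz and heavy chain genes on the left.

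The macroglobulins that were called were all higher. Of the 7 genes, 3 passed the thresholds after 3 h and 4 after 1 h. MSTRG.23773, the pregnancy zone protein, had 44.2, 108 and 163 FPKM in CON, 101, 234 and 302 FPKM in T_1h, and 203, 285 and 321 FPKM in T_3h. Every T_3h library was above every CON library, and within each group library 1 was the lowest and library 3 the highest. It averaged 270 ± 60.2 FPKM in T_3h and 105 ± 59.6 FPKM in CON (SD, n = 3 each), a log2 fold change of 1.51 (SE 0.50, adjusted p = 0.732 by limma). T_1h vs. CON gave 1.51 (SE 0.56). Without CON_1 the 3 h change was 0.99 and no longer passed. At 1 h it did not pass without CON_1 (0.99), T_1h_2 (1.70) or T_1h_3 (1.33), nor with all 9 libraries (1.05). This gene was added to the 50 by its number with its values known, so its direction is not independent evidence.

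The largest fold changes among the 7 belonged to MSTRG.552 and MSTRG.45318, both described as alpha-2-macroglobulin, a protein that in vertebrate plasma traps proteases that have cut its bait region. MSTRG.552 had 0.854, 4.84 and 5.76 FPKM in CON, 6.23, 22.1 and 42.1 in T_1h, and 13.6, 18.7 and 28.5 in T_3h. All 6 incubated libraries were above all 3 fresh ones. Its log2 fold change was 2.29 after 3 h (SE 0.57, adjusted p = 0.649) and 2.92 after 1 h (SE 0.64). The 1 h value leaves out T_1h_1 but keeps CON_1. Within numbers 1, 2 and 3 the log2 difference of T_1h over CON was lower, at 1.96, 1.99 and 2.67. MSTRG.45318 had 1.25, 7.59 and 6.58 FPKM in CON, 5.15, 24.8 and 31.5 in T_1h, and 10.7, 23.4 and 22.6 in T_3h. Here the T_3h libraries were all above CON, but T_1h_1 at 5.15 was inside the CON range. The change was 1.84 after 3 h (SE 0.58, adjusted p = 0.713) and 2.46 after 1 h (SE 0.65). Here too the 1 h fit leaves out T_1h_1 but keeps CON_1. The log2 difference of T_1h over CON for MSTRG.45318 was lower in each number, at 1.45, 1.58 and 2.10. The mean FPKM of MSTRG.552 ranked 1146 in T_3h and 8639 in CON, and that of MSTRG.45318 ranked 1233 and 6634, counted from the most abundant gene of the table. Both were past the thresholds in each of the 8 fits that left out 1 library, at both times. By the Ballgown-type test MSTRG.45318 did not pass after 3 h, with an unadjusted p of 0.0674.

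The other 4 macroglobulins were lower in abundance. MSTRG.40214 had 2.07, 2.95 and 3.36 FPKM in CON, 5.36, 4.15 and 9.32 in T_1h, and 9.91, 4.11 and 5.34 in T_3h. No incubated library overlapped with CON, but the log2 fold change of 0.91 after 3 h (SE 0.45) and of 0.96 after 1 h (SE 0.50) did not pass. It passed after 3 h (1.33) and after 1 h (1.09) once libraries were scaled by the median-ratio method. MSTRG.40216 was near 0 in CON, with 0, 0.145 and 0.107 FPKM, and had 0.0294, 0.891 and 1.99 FPKM in T_1h and 0.0442, 0.531 and 1.97 FPKM in T_3h. Library 1 of each incubated group lay inside the CON range. It passed after 1 h at a log2 fold change of 1.14 (SE 0.49) and not after 3 h (0.64, SE 0.43). The 1 h change was 0.94 with the replicate number as a block and no longer passed, and it failed in 5 of the 8 fits that left out 1 library, with values between 0.81 and 1.47 over the 8. MSTRG.32908, whose description also names complement C3, had at most 1.57 FPKM in T_3h and at most 0.579 in CON, and MSTRG.6312 stayed under 0.5 FPKM in every library.

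Libraries of the same replicate number deviated together, so the change was also read within each number. All 7 macroglobulins were higher in T_3h than in CON in 3 of 3 numbers. Among all 50 genes, 8 (16.0%) were higher in 3 of 3 numbers, against 4.93% of all tested genes, and 17 (34.0%) were lower, against 26.4%. The 7 and the 8 both include MSTRG.23773, which was added with its values known. For MSTRG.23773 the log2 difference of T_3h over CON was 2.18, 1.39 and 0.97 in numbers 1, 2 and 3, and for MSTRG.552 it was 2.98, 1.76 and 2.12. Macroglobulin genes resemble each other, and reads of one could have been assigned to another in the authors' counting.

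**Figure D2:**
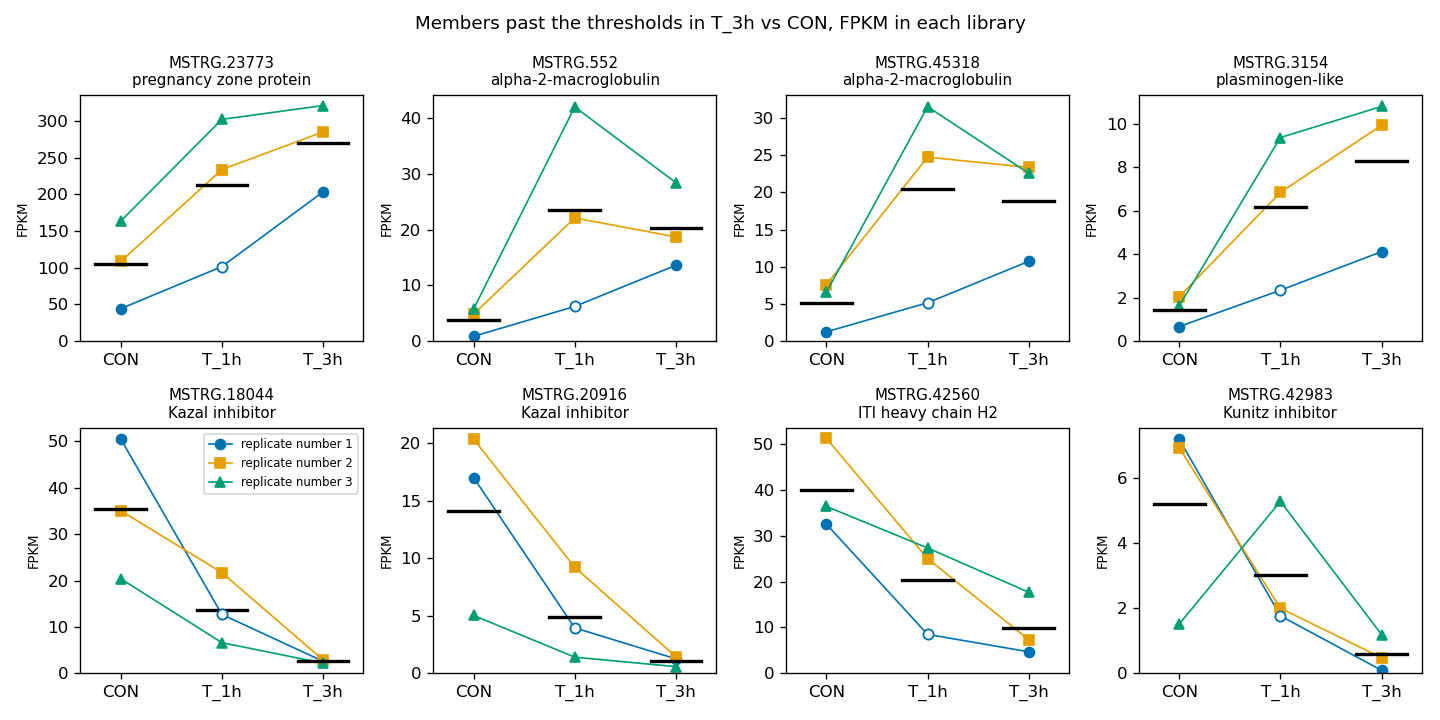
FPKM in each library is plotted for the 8 genes past the thresholds in T_3h vs. CON, with CON, T_1h and T_3h on the horizontal axis, lines joining libraries of the same replicate number and black bars at the mean of 3 libraries; the open circle is T_1h_1, which was left out of the fit. The 4 genes of the upper row lie above the CON range in all 3 T_3h libraries, and the 4 genes of the lower row lie below it.

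The Kazal inhibitors that were called were all lower. These small secreted proteins block trypsin, chymotrypsin and related enzymes, and in other invertebrates they are found in body fluid and egg coats. Of the 4 genes, 2 passed the thresholds after 3 h, and the other 2 were near the limit of detection. MSTRG.18044 had 50.5, 35.1 and 20.4 FPKM in CON, 12.7, 21.7 and 6.62 in T_1h, and 2.61, 2.90 and 2.20 in T_3h. The T_3h libraries lay close together and far below all CON libraries, while T_1h_2 reached into the CON range. It averaged 2.57 ± 0.352 FPKM in T_3h and 35.3 ± 15.1 FPKM in CON (SD, n = 3 each), the largest log2 fold change of the 50 genes at −3.26 (SE 0.51, adjusted p = 0.626 by limma). Its mean FPKM ranked 8503 in T_3h and 958 in CON.

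After 1 h the change of MSTRG.18044 was −1.38 (SE 0.57, an unadjusted p of 0.0406), past the thresholds but not firmly. Of the 8 fits that left out 1 library, 6 lost the call, with −1.08 without CON_1, −1.34 without CON_2, −0.59 without T_1h_3 and −1.38 without any 1 of the 3 T_3h libraries. It was −1.22 with the replicate block, which passed, and −1.19 with median-ratio scaling, which did not, at an unadjusted p of 0.115. The 3 h call was kept in all 8 of these fits, between −3.60 and −2.96.

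MSTRG.20916 had 17.0, 20.4 and 5.04 FPKM in CON, 3.95, 9.22 and 1.41 in T_1h, and 1.26, 1.45 and 0.583 in T_3h. All T_3h libraries were below all CON libraries, and T_1h_1 and T_1h_3 were too. After 3 h the log2 fold change was −2.68 (SE 0.67, adjusted p = 0.646). After 1 h it was −1.42 (SE 0.74), which did not pass, but it passed with the replicate block at −1.27. In each of the 9 libraries MSTRG.18044 was between 1.72 and 4.70 times as abundant as MSTRG.20916.

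The Kunitz inhibitor and a heavy chain were also lower after 3 h. MSTRG.42983, a precursor with a Kunitz domain, the fold of bovine pancreatic trypsin inhibitor, had 7.20, 6.94 and 1.52 FPKM in CON, 1.77, 2.0 and 5.29 in T_1h, and 0.0938, 0.482 and 1.20 in T_3h. T_1h overlapped with CON, and T_3h was below it, though T_3h_3 at 1.20 was close to CON_3 at 1.52. The log2 fold change was −1.84 after 3 h (SE 0.58, adjusted p = 0.715) and −0.33 after 1 h (SE 0.65). MSTRG.42560, a heavy chain H2 of the inter-alpha-trypsin inhibitor, had 32.5, 51.2 and 36.3 FPKM in CON, 8.50, 25 and 27.3 in T_1h, and 4.69, 7.34 and 17.7 in T_3h. The incubated libraries were all below the fresh ones. Heavy chains are known in mammals to be passed onto hyaluronan, where they crosslink the matrix around cells. The gene changed by −2.07 on the log2 scale after 3 h (SE 0.48, adjusted p = 0.626), and its value after 1 h was −0.57 (SE 0.54). With the replicate block and all 9 libraries the 1 h change was −1.07 and passed. By the Ballgown-type test neither gene passed after 3 h, with an unadjusted p of 0.0982 for MSTRG.42983 and of 0.0811 for MSTRG.42560.

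The other 4 heavy chains, all described as H3, were not called. MSTRG.17994 had 5.0, 2.47 and 7.93 FPKM in CON, 4.45, 4.53 and 15.3 in T_1h, and 3.98, 1.80 and 12.3 in T_3h, with library 3 the highest and groups that overlapped. MSTRG.18002 stayed between 2.62 and 7.41 FPKM over the 9 libraries. The remaining pair stayed under 0.2 FPKM in every library.

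The stefins were the most abundant of the 50 genes in fresh body wall. Stefins are cytosolic inhibitors of papain-like cysteine proteases, and their name here comes from the pig leukocyte protein. MSTRG.34281 had 291, 1033 and 739 FPKM in CON, 386, 629 and 247 in T_1h, and 227, 237 and 356 in T_3h. T_3h_3 at 356 was above CON_1 at 291, so the groups overlapped. Its log2 fold change of −1.18 after 3 h (SE 0.56) had an unadjusted p of 0.0675 and did not pass. It passed with the replicate block, but with the block and median-ratio scaling it was −0.65 and did not. MSTRG.29176 had 242, 398 and 273 FPKM in CON, 267, 306 and 107 in T_1h, and 206, 149 and 154 in T_3h. T_3h did not overlap with CON, yet the log2 fold change of −0.82 (SE 0.45) did not pass. The mean FPKM of MSTRG.34281 ranked 162 in T_3h and 81 in CON, and that of MSTRG.29176 ranked 215 and 162.

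The cystatin MSTRG.43877 had 33.2, 31.9 and 50.5 FPKM in CON, 48.1, 35.3 and 24.2 in T_1h, and 36.7, 27.9 and 34.8 in T_3h. The 3 groups overlapped, and the log2 fold change was −0.19 after 3 h (SE 0.35). Its description comes from a spider cystatin. The serpins were scarce: MSTRG.1946 stayed between 0.406 and 1.47 FPKM and MSTRG.24559 was at most 0.149 FPKM and listed at 0 in 6 libraries. Neither serpin was called. The WFIKKN gene MSTRG.14532, of a family known in mammals for binding growth factors of the myostatin group, averaged 7.89 ± 6.27 FPKM in T_3h and 7.71 ± 2.15 FPKM in CON (SD, n = 3 each). Its log2 fold change was −0.18 (SE 0.69). The RECK genes were not called, and they summed to between 0.476 and 2.28 FPKM over the libraries.

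**Figure D3:**
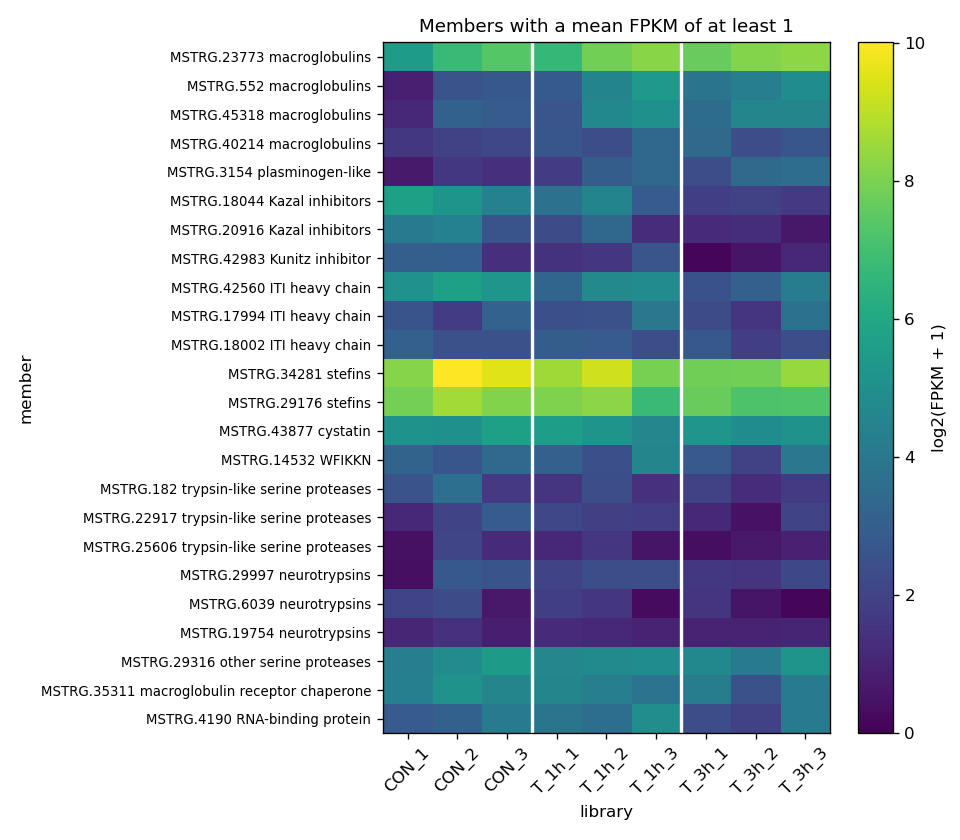
Colour gives log2(FPKM + 1) for the 24 genes whose mean FPKM was 1 or more (rows, ordered by kind) in the 9 libraries (columns, white lines between CON, T_1h and T_3h). The stefins and the pregnancy zone protein are the brightest rows in every T_1h and T_3h library, and the Kazal rows are darker, and the macroglobulin rows brighter, in T_3h than in CON.

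Among the 23 serine proteases 1 was called at each time. MSTRG.3154, described as plasminogen-like and as a hypothetical protein, had 0.670, 2.04 and 1.62 FPKM in CON, 2.34, 6.84 and 9.37 in T_1h, and 4.12, 9.93 and 10.8 in T_3h. All 6 incubated libraries were above all 3 fresh ones. In vertebrates plasminogen is the zymogen of plasmin, which dissolves fibrin and activates other proteases, and its kringle domains occur in other proteins too. It changed by 1.88 on the log2 scale after 3 h (SE 0.45, adjusted p = 0.631) and by 1.93 after 1 h (SE 0.51), and both calls were kept in the 8 fits that left out 1 library. Within numbers 1, 2 and 3 the log2 difference of T_3h over CON was 1.62, 1.85 and 2.17. That of T_1h over CON was lower in each number, at 1.00, 1.37 and 1.98, whereas the 1 h fit leaves out T_1h_1. The other plasminogen gene, MSTRG.37446, had 0, 0 and 0.0531 FPKM in T_3h and 0.167, 0.513 and 0.709 in CON. Its log2 fold change of −0.51 was too small on this scale to pass.

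The chymotrypsins were at low FPKM, and the trypsin-like proteases had a higher sum in every library. The chymotrypsins, enzymes of the gut in most animals, summed to at most 0.431 FPKM in T_3h and at most 1.35 in CON. MSTRG.29068 had 0.0679, 0 and 0 FPKM in T_3h and 1.14, 0.487 and 0.0156 in CON, with a log2 fold change of −0.53 (SE 0.24). MSTRG.28842 was above 0 in 5 libraries and at most 0.431 FPKM. The 4 trypsin-like proteases summed to 4.40, 3.17 and 7.52 FPKM in T_3h and 6.39, 19.6 and 10.9 in CON, sums that overlap, and none was called. Among them MSTRG.182 was the most abundant, with 2.93, 1.44 and 2.27 FPKM in T_3h and 4.85, 11.7 and 2.13 in CON.

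None of the 7 neurotrypsins was called. Neurotrypsin is known in mammals for cutting agrin at synapses. Their summed FPKM was 5.34, 4.06 and 6.06 in T_3h and 6.85, 16.0 and 9.41 in CON, so every T_3h sum was below every CON sum on the deposited scale. Their median log2 fold change after 3 h was −0.34, and −0.20 with median-ratio scaling. MSTRG.24119 had 0.234, 0.0916 and 0.543 FPKM in T_3h and 1.44, 1.78 and 0.954 in CON. MSTRG.42118 had 0.101, 0.133 and 0.163 FPKM in T_3h and 0.263, 1.26 and 1.52 in CON. These 2 genes did not overlap between the groups and had unadjusted p under 0.05, but their log2 fold changes of −0.89 and −0.77 stayed under the threshold of size. Of all tested genes, 9.0% lay below CON without overlap.

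Most of the FPKM of the other 8 serine proteases came from MSTRG.29316, described as thymus-specific serine protease, which had 18.3, 27.3 and 42.8 FPKM in CON, 23.6, 26.2 and 28.2 in T_1h, and 24.4, 16.1 and 35.5 in T_3h. The groups overlapped and the log2 fold change after 3 h was −0.20 (SE 0.44). The next, MSTRG.46065, merges several predicted genes. It is described both as an alkaline serine protease and as deleted in malignant brain tumors 1 protein. How much of its FPKM belongs to the protease is unknown. MSTRG.46065 was at 0 in library 1 of each group and at 3.04, 3.45 and 1.97 FPKM in library 2 of CON, T_1h and T_3h. Its level thus followed the replicate number and not the time. MSTRG.21917, the mitochondrial protease HTRA2, stayed between 0.464 and 1.48 FPKM.

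Of the 2 proteins that are neither, MSTRG.35311, the chaperone of the macroglobulin receptor, had 18.9, 34.3 and 22.4 FPKM in CON, 23.1, 18.6 and 13.1 in T_1h, and 17.5, 4.60 and 16.9 in T_3h. T_3h was below CON in all libraries, and the log2 fold change of −1.05 (SE 0.53) did not pass. MSTRG.4190 had 6.31, 7.67 and 16.3 FPKM in CON, 13.5, 11.4 and 29.1 in T_1h, and 4.20, 2.98 and 15.9 in T_3h. Within each number it was highest at 1 h. Neither was called against CON.

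The balance among the inhibitors within a library does not depend on how libraries are scaled. Stefins and macroglobulins together held between 72.2% and 88.6% of the summed FPKM of the 50 genes. Macroglobulins held 6.02%, 6.79% and 12.5% of that sum in CON, 12.5%, 20.2% and 40.9% in T_1h, and 29.9%, 41.0% and 35.4% in T_3h. Stefins held 66.2%, 78.2% and 70.4% in CON, 68.9%, 65.7% and 37.3% in T_1h, and 54.4%, 47.6% and 47.4% in T_3h. The T_3h shares did not overlap with those of CON for either kind. The sum of the 50 genes includes MSTRG.23773, which was added with its values known, so the shares of both kinds depend on that gene. Summed macroglobulin FPKM was 0.55, 0.862 and 0.746 of summed stefin FPKM in T_3h, against 0.0909, 0.0868 and 0.178 in CON, and MSTRG.23773 was 77.8% to 91.3% of the macroglobulin sum. MSTRG.23773 was 43.3, 38.8 and 18.2 times as abundant as MSTRG.42560 in T_3h, against 1.36, 2.12 and 4.49 times in CON. These ratios were chosen after the values were seen and carry no test. An exact permutation test of 3 libraries against 3 cannot give a p under 0.1. The sum of all inhibitors over the sum of all serine proteases was 18.4, 21.2 and 15.8 in T_3h and 21.5, 24.4 and 19.8 in CON. These ranges overlap, but within each of the 3 replicate numbers the ratio was lower in T_3h than in CON. Stefins, which bind cysteine proteases, gave 533 of 744, 1431 of 1717 and 1012 of 1330 FPKM of the inhibitor sum in CON. In T_3h they gave 433 of 734, 386 of 768 and 510 of 981 FPKM. The ratio therefore does not set inhibitors against their own targets.

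**Figure D4:**
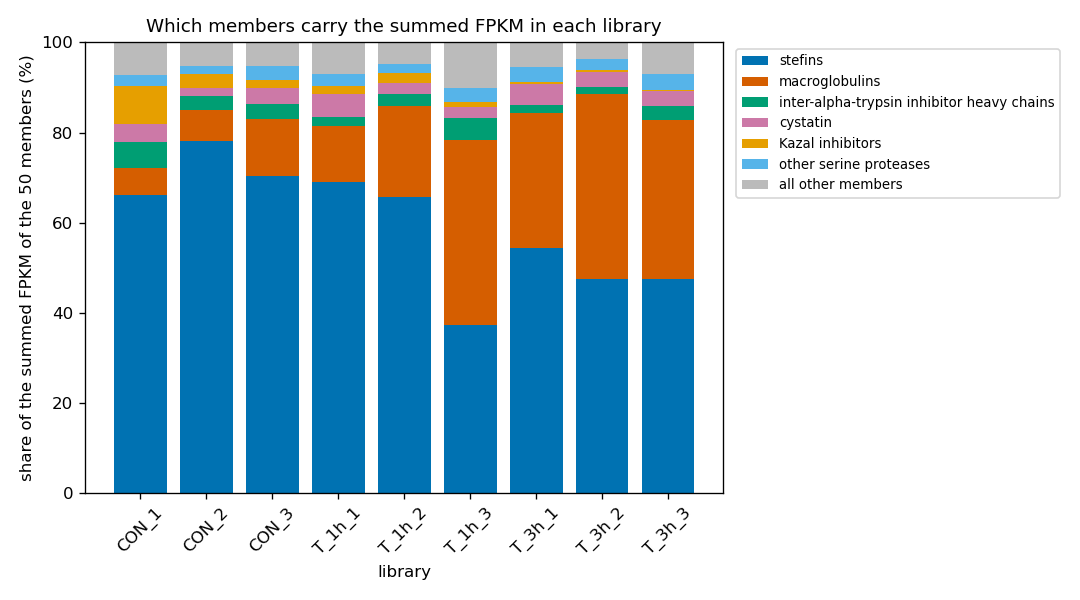
Each bar is 1 library and shows how the summed FPKM of the 50 genes divides among their kinds, in percent, with the CON libraries on the left, T_1h in the middle and T_3h on the right. The macroglobulin share is 29.9% to 41.0% in T_3h and 6.02% to 12.5% in CON, and the Kazal share shrinks to under 1% in T_3h. The sum includes MSTRG.23773, which was added with its values known.

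T_3h was also compared with T_1h. In that comparison 3 of the 50 genes passed the thresholds, all lower in T_3h, against 0.728% of all tested genes, 0.645% lower and 0.0824% higher. They were MSTRG.18044 at a log2 fold change of −1.89 (SE 0.57), MSTRG.42560 at −1.50 (SE 0.54) and MSTRG.42983 at −1.51 (SE 0.65), and the adjusted p of limma was 1 for each. For MSTRG.18044 all T_3h libraries were below all T_1h libraries. For MSTRG.42560, T_3h_3 at 17.7 FPKM was above T_1h_1 at 8.50, and with all 9 libraries the change was −0.99 and did not pass. With the replicate block MSTRG.42983 did not pass, at an unadjusted p of 0.064, while MSTRG.20916 (−1.41) and MSTRG.4190 (−1.22) did. Without T_1h_2, T_3h_1 or T_3h_2 only 1 of the 50 genes passed. MSTRG.23773 differed by −0.0046 between T_3h and T_1h (SE 0.56), less than that error, in the fit without T_1h_1. Within numbers 1, 2 and 3 it was higher in T_3h, at 203, 285 and 321 FPKM, than in T_1h, at 101, 234 and 302 FPKM.

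Counting libraries rather than tests, 6 of the 50 genes (12%) had all T_3h libraries above all CON libraries, against 1.68% of all tested genes, and 10 (20.0%) had all below, against 9.0%. The 6 were 5 macroglobulins and MSTRG.3154. Among these macroglobulins was MSTRG.23773, which was added with its values known. Another was MSTRG.6312, which was near 0, with its lowest T_3h library at 0.0637 FPKM and its highest CON library at 0.0471. Without T_3h_2, the library that stood apart, the 8 calls of T_3h vs. CON were all kept. With the replicate block 9 genes passed after 3 h (6.22% of all tested genes), where MSTRG.34281 was the addition, 6 after 1 h (1.55%) and 4 in T_3h vs. T_1h (0.971%). In a fit chosen after seeing the data, with the block, all 9 libraries and only genes with mean FPKM from 1 upwards, 7 of 24 genes had an adjusted p under 0.05 after 3 h, against 6.58% of all genes of that fit. Their limma adjusted p was 0.0071 for MSTRG.18044, 0.0131 for MSTRG.20916, 0.0177 for MSTRG.3154, 0.0188 for MSTRG.552, 0.0229 for MSTRG.45318, 0.025 for MSTRG.42560 and 0.0267 for MSTRG.23773. With median-ratio scaling added to that fit, 6 of 25 had one, against 2.03%, and MSTRG.42560 was at 0.0806. No gene of the 50 had one after 1 h in either fit.

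A second list held 47 genes that the rule does not take, found by words of related proteins in the description, such as furin, subtilisin, enteropeptidase, papilin, WAP, follistatin and agrin, of which 45 were tested. No gene of it passed after 1 h. After 3 h 2 passed higher and 7 lower, against 0.473% and 3.67% of all tested genes. The words matched other proteins too: hepsin caught 13 cathepsins, furin caught 2 phosphofurin sorting proteins and elastase caught 1 metalloelastase. None of the last 3 was called, and 5 of the 7 lower genes were described as cathepsin or cathepsin-associated. Cathepsin L is a lysosomal cysteine protease, of the class that stefins bind, and cathepsin D is a lysosomal aspartic protease. MSTRG.29892, a cathepsin L, had 244, 52.0 and 254 FPKM in T_3h and 597, 391 and 443 in CON, and MSTRG.32391, a cathepsin D, had 24.8, 19.2 and 46.0 in T_3h and 132, 105 and 65.6 in CON. Neither overlapped between T_3h and CON. Among the genes that rose, MSTRG.28722, a WAP protein, had 1.56, 7.09 and 4.33 FPKM in T_3h and 0.569, 1.12 and 0.616 in CON. The count of 9, against 4.14% of all tested genes, was 14 with the replicate block (6.22%), 2 higher and 12 lower. With median-ratio scaling it was 5 (2.81%), 3 higher and 2 lower. Without T_3h_2 it was 4 (2.43%), 0 higher and 4 lower, and by the Ballgown-type test it was 0 (1.54%).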

How the data were processed

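RNA of the body wall was sequenced in 9 libraries, paired-end on an Illumina instrument. The authors removed reads of low quality, aligned with HISAT to the *A. japonicus* genome, assembled and merged transcripts with StringTie, and deposited FPKM values per gene. The submitters' processing notes name HISAT2 2.0, StringTie 1.3.0, Bowtie 0.12.2 and a mouse build (mm8), without saying what the last 2 were used for. No counts were used, so the precision rests on 3 libraries per group, or 2 for T_1h in the fit.

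Libraries were grouped by their labels. The values log2(FPKM + 1) were the input of limma 3.58.1, run in R 4.3.3 (1 model of 3 groups, trend, T_1h_1 left out), over 50973 genes above 0 in at least 2 of 8 libraries, with Benjamini-Hochberg adjustment over all of them. All p-values are two-sided. Python 3.11.15, pandas 2.3.3, numpy 2.4.6 and matplotlib 3.10.9 handled tables and figures. The scripts were tested on simulated data. The members and gene lists were chosen with earlier results of these data known. Named were MSTRG.23773, every member past the thresholds in any of the 3 comparisons, and the 2 most abundant members of each role by description; other genes in the text were chosen after their values were seen.

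Alternatives were a pseudocount of 0.1, no filter, a mean FPKM of at least 1, all 9 libraries, median-ratio and upper-quartile (0.75) scaling, no trend, an unmoderated Ballgown-type F-test, the replicate number as a block, the block with all 9 libraries or with median-ratio scaling, and leaving out each of 8 libraries. A further 3 fits, which combine the block and all 9 libraries with other choices, were chosen after seeing the data, 22 alternatives in all. Replicate numbers come from the library labels, and the methods do not say whether same-numbered libraries share an animal. Deviations from the group means correlated at 0.593 to 0.721 in all 9 same-numbered pairs, so the numbers were taken to pair the libraries. The 18 other pairs, at −0.438 to −0.116, add no evidence, because deviations from a group mean cancel out within the group. None of the 59 predicted genes behind the members matched the RefSeq table of assembly ASM3797524v1, so no positions or sequences are given.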

Additional observations from a re-analysis of the deposited data

Results flagged for a closer look

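For 3 genes the change after 3 h differed from the change after 1 h, by limma's test of T_3h against T_1h. MSTRG.18044, a Kazal inhibitor, differed by a log2 fold change of −1.89, MSTRG.42983, a Kunitz inhibitor, by −1.51, and MSTRG.42560, a heavy chain of the inter-alpha-trypsin inhibitor, by −1.50, each lower in T_3h. No adjusted p was under 0.05. MSTRG.18044 lost the call without T_1h_2 (−1.10). MSTRG.42983 lost it without CON_2 (−1.51), T_1h_3 (−0.98), T_3h_1 (−1.27) and T_3h_2 (−1.49). MSTRG.42560 lost it without T_1h_2 (−1.56), T_1h_3 (−1.44), T_3h_1 (−1.12) and T_3h_2 (−1.40).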

How the results depend on the processing

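No fold change of a called gene changed sign under the 22 alternatives. After 1 h, where 5 members were higher and 1 lower, 3 were higher with all 9 libraries. The lower count was 2 with all 9 libraries, with the replicate block, with the block, all 9 libraries and median-ratio scaling, and with these and the minimum mean FPKM of 1. It was 3 with the block and all 9 libraries, with or without that minimum, and 0 with median-ratio scaling, upper-quartile scaling and the Ballgown-type test. After 3 h, where 8 passed, 5 passed by the Ballgown-type test, and of the 4 lower members there were 2 by that test and 7 with a pseudocount of 0.1. The median of the members, −0.16, was −0.44 with the block, all 9 libraries and the minimum, −0.0024 with median-ratio scaling, −0.0015 with upper-quartile scaling and 0.07 with the block, all 9 libraries, the minimum and median-ratio scaling. In T_3h vs. T_1h, where 3 passed, all lower, 1 passed with upper-quartile scaling and 0 by the Ballgown-type test, and the median, −0.25, was −0.57 with a pseudocount of 0.1, −0.56 with the minimum mean FPKM, −0.12 with median-ratio or upper-quartile scaling and −0.03 with the block and median-ratio scaling.

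The related genes numbered 9 after 3 h, 14 with the replicate block, also with all 9 libraries and with the minimum, 5 with median-ratio or upper-quartile scaling and 0 by the Ballgown-type test. After 1 h 2 passed with a pseudocount of 0.1, and 1 by the Ballgown-type test and with the block and all 9 libraries, with or without the minimum. In T_3h vs. T_1h 3 passed with a pseudocount of 0.1, 2 with the minimum and with the block and all 9 libraries, and 0 by the Ballgown-type test. The causes were not tested.

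Leaving out 1 library gave 3 to 8 members after 1 h (3 to 5 higher, 0 to 3 lower), 8 to 11 after 3 h (3 to 5 higher, 4 to 7 lower) and 1 to 4 in T_3h vs. T_1h, all lower, with medians of −0.05 to 0.05, −0.28 to −0.10 and −0.35 to −0.08. It gave 0 to 1, 4 to 11 and 0 to 6 related genes. The lowest counts of members after 1 h came without CON_1 and without T_1h_3, and the 7 lower after 3 h without CON_3. FPKM carries no depth per gene, so differences among genes under 1 FPKM may not be detectable.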
